A study of Mus musculus with 20 samples.

Results

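The 8 adenylyl cyclase genes Adcy1, Adcy2, Adcy3, Adcy5, Adcy6, Adcy7, Adcy8 and Adcy9 were followed through postnatal development of the mouse dentate gyrus. They were taken by symbol from the 32245 gene symbols of a table of raw read counts, and all 8 were present and had enough counts to be tested. The libraries hold ribosome-bound mRNA of the hippocampus from mice of 1 genotype, Rbp4-Cre:RiboTag, and are labelled as granule cells. In such mice Cre recombinase, driven by regulatory sequence of Rbp4, switches on a ribosomal protein RPL22 that carries an HA tag, and the tagged ribosomes are pulled out of a hippocampal lysate with anti-HA beads. The ages were postnatal day 5 (P5), with 5 libraries, and P7, P10, P15, P21 and P28, with 3 libraries apiece. Every age shares the Cre driver and the tagged allele, and unselected hippocampal RNA and mice without Cre were not analysed here. Whether replicates are separate animals is not stated in the labels, so the spread behind each p-value is that between samples and may be technical.

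Adenylyl cyclases make cyclic AMP (cAMP) from ATP, and cAMP acts on protein kinase A, on exchange factors for small GTPases and on ion channels. The membrane-bound enzymes are all stimulated by the G protein subunit Gs alpha and fall into classes by what else controls them. Those encoded by Adcy1, Adcy3 and Adcy8 are stimulated by calcium with calmodulin, those of Adcy2, Adcy4 and Adcy7 by G protein beta gamma subunits in the presence of Gs alpha, those of Adcy5 and Adcy6 are inhibited by calcium, and that of Adcy9 responds weakly to the drug forskolin. In granule cells cAMP is known above all from the mossy fiber, the granule cell axon, where long-term potentiation is presynaptic and depends on calcium-stimulated cyclase activity.

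Adcy1 supplied most of the cyclase mRNA at every age, and its level at P15 was 1.96-fold that at P5. Adcy2, Adcy8 and Adcy9 were also higher at P15, while Adcy5, Adcy3 and Adcy6 were lower and Adcy7, the rarest, did not pass the test. Among the cyclase genes the second place by level per length was held by Adcy5 at P5 and P7 and by Adcy2 from P10 on.

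The genes lie on separate chromosomes except for 2 pairs. In GENCODE release M21 of the mm10 assembly, Adcy1 is on chromosome 11 from 7063489 to 7178506 (plus strand), Adcy2 on chromosome 13 from 68620043 to 68999541 (minus strand) and Adcy3 on chromosome 12 from 4133103 to 4213525 (plus strand). Adcy5 (35154877 to 35305738, plus strand) and Adcy9 (4287529 to 4420498, minus strand) share chromosome 16. Adcy6 (98589973 to 98610076, minus strand) and Adcy8 (64697084 to 64922296, minus strand) share chromosome 15, and Adcy7 is on chromosome 8 from 88272403 to 88329962 (plus strand). All 8 are protein-coding. Exons of 3 of them overlap a gene on the opposite strand, by 189 bases for Adcy2 (Gm35161), 1380 bases for Adcy3 (Cenpo) and 605 bases for Adcy6 (Gm29331). The kit marks strand, but whether the counting used it is not given in the sources used here. The partners were rare, at 0.403 to 2.41 CPM for Gm35161 and 0.944 to 3.8 CPM for Cenpo, and Gm29331 had at most 1 read in a library.

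The start regions of the 3 genes that rose together with the smallest p (Adcy1, Adcy2 and Adcy9) and of the most abundant gene that fell (Adcy5) are printed so that they can be compared. Each runs 5′ to 3′ along its gene, from 250 bases before the start annotated by RefSeq to 50 after it, and capitals mark the GC box, GGGCGG on either strand.
Adcy1, GRCm38.p6 chr11:7063183-7063482, plus strand: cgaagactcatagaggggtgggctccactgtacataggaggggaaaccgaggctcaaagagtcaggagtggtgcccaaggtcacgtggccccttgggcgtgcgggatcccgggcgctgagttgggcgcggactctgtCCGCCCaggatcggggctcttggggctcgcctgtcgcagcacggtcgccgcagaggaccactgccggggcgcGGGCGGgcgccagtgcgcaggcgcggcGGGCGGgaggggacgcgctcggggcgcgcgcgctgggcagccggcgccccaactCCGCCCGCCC
Adcy2, GRCm38.p6 chr13:68999492-68999791, minus strand: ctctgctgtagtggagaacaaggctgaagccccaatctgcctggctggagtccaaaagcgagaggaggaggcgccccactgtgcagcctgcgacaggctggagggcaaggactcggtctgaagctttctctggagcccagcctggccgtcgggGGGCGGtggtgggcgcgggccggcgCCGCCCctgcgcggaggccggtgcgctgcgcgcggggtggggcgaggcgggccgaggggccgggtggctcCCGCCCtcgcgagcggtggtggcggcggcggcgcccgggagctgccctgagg
Adcy9, GRCm38.p6 chr16:4420449-4420748, minus strand: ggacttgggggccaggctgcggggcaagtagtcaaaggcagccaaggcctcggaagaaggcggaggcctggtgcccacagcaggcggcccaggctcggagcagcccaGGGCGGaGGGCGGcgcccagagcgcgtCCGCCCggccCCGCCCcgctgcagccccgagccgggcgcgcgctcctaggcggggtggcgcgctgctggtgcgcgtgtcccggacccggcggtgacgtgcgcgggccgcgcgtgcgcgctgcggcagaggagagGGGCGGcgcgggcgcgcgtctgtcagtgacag
Adcy5, GRCm38.p6 chr16:35154614-35154913, plus strand: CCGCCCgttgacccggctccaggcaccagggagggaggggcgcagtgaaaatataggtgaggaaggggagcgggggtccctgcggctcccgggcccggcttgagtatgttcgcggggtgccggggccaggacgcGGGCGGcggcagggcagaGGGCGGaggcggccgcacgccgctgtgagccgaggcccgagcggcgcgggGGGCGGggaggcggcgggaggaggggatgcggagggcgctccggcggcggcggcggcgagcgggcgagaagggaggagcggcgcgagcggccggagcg
These windows were rich in G and C, with 74% for Adcy1, 75% for Adcy2, 78.3% for Adcy9 and 79% for Adcy5, against a median of 52.7% over 32851 windows. GC boxes were found 5 times at Adcy1 (2 of them overlap by 2 bases at its 3′ end), 3 times at Adcy2, 5 times at Adcy9 and 4 times at Adcy5, and 35.7% of all windows hold at least 1. The printed genes that rose and Adcy5 were thus alike in both respects. The windows of Adcy3, which also fell, and of Adcy7 had lower values. Adcy3 had 68.7% G and C with 1 GC box at its first start, and 56% with 0 at its second. The 3 starts of Adcy7 had 54.7%, 57% and 55.7%, with 0, 0 and 1 GC boxes. The full cAMP response element, TGACGTCA, occurred in none of the 9 windows of the 6 genes that matched the RefSeq table (all but Adcy6 and Adcy8), and occurs in 1.79% of all windows. Its core TGACG was found once at Adcy9 and once at 1 of the 3 starts of Adcy7, against 20.8% of all windows, in which the full element is counted too. TATAAA was in none of the 9 (13.6% of all), and CAGATG, a site of neurogenic bHLH factors, was found at the second start of Adcy3 and at 2 starts of Adcy7 (17.2% of all). Both strands were searched for every motif. A match is a stretch of letters and not a measured site, and no binding was measured here.

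Library totals ran from 15.9 to 24.9 M counts, so that 3 counts, taken as the floor of detection, equal 0.122 to 0.181 counts per M (CPM). That floor covers counting error only. CPM values are relative to the library total after scaling by trimmed means. By the labels, batch A comprised P10, P15 and 3 of the P5 libraries, batch B comprised P7 and the remaining 2 P5 libraries, and P21 and P28 were batch C. At P5, 10.1% of the genes tested differed between batches B and A, and among the cyclases 3 of 8 did, all higher in B. Their log2 differences were 0.29 for Adcy1 (SE 0.07, adjusted p = 0.0059), 0.3 for Adcy2 (SE 0.08, adjusted p = 0.015) and 0.5 for Adcy9 (SE 0.1, adjusted p = 0.0029). The fitted comparisons hold a term for this difference, so that P10, P15 and P28 were set against the P5 libraries of batch A. Age and batch cannot be told apart wherever P21 or P28 is set against an earlier age.

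The granule cell label was checked on 6 markers, all of which were detected, and their summed level was 2270 to 2340 CPM at P28 and 1490 to 1640 CPM at P5. Prox1, the transcription factor that defines granule cells, averaged 547 ± 28.7 CPM at P5 (SD, n = 5), 556 ± 12.4 at P15 and 515 ± 16.9 at P28 (n = 3 each). Markers of other cells were present too. The 7 oligodendrocyte markers summed to 1010 to 1770 CPM at P15 and 96.6 to 122 CPM at P5. The 7 astrocyte markers summed to 1200 to 1490 CPM at P15 and 625 to 673 CPM at P5. Most of the astrocyte gain lay in Slc1a2, with means of 1000 CPM at P15 and 339 CPM at P5. Gfap (112 and 82 CPM) and Aldoc (82.8 and 44.7 CPM) were also higher. Slc1a3 (107 and 106 CPM) and Gja1 (36.9 and 34.7 CPM) were nearly level, and Aqp4 (28.6 and 32.2 CPM) and Aldh1l1 (10.7 and 15.3 CPM) were lower. The 4 markers of CA pyramidal neurons summed to 295 to 468 CPM at P15 and 378 to 522 CPM at P5. The 4 immature neuron markers summed to 173 to 186 CPM at P15 and 891 to 1190 CPM at P5, and the 6 progenitor and cell cycle markers to 32.3 to 50.6 CPM at P15 and 112 to 176 CPM at P5. The 6 interneuron markers summed to 259 to 310 CPM at P15 and 153 to 178 CPM at P5, the 4 mossy cell markers to 12.9 to 21.1 CPM at P15 and 23.6 to 30.1 CPM at P5, the 4 oligodendrocyte precursor markers to 50.8 to 72 CPM at P15 and 74.3 to 134 CPM at P5, and the 4 markers of choroid plexus and ependyma to 87.2 to 220 CPM at P15 and 200.0 to 388 CPM at P5. None of these markers was at 0 in every library of P5 or P15. In the interneuron, CA pyramidal and mossy cell lists, and that of choroid plexus and ependyma, the means of single markers went both ways. In pulldowns of many cells, fewer cells of a type and less RNA per cell cannot be told apart.

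Levels of different genes were compared per kilobase of exon (RPKM, on the same scaling). Adcy1 averaged 81.4 ± 10.3 RPKM in the P5 libraries (SD, n = 5), 99.2 ± 5.89 in those of P7, 127 ± 4.53 in those of P10, 147 ± 2.05 in those of P15, 172 ± 7.64 in those of P21 and 149 ± 6.78 in those of P28 (n = 3 each). Its share of the summed level of the 8 genes was 60.6% ± 1.81 (P5), 63.5% ± 1.5 (P7), 69.2% ± 1.14 (P10), 72.4% ± 0.361 (P15), 73.7% ± 1.6 (P21) and 69.3% ± 1.34 (P28). Most cyclase mRNA on these ribosomes was therefore that of 1 calcium-stimulated enzyme throughout. The sum over the 8 genes averaged 134 ± 13.1 RPKM at P5, 203 ± 2.89 at P15 and 214 ± 5.95 at P28. Without Adcy1 it averaged 52.5 ± 2.97 RPKM at P5, 56 ± 1.2 at P15 and 65.7 ± 1.52 at P28, so that most of the gain lay in Adcy1.

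**Figure D1:**
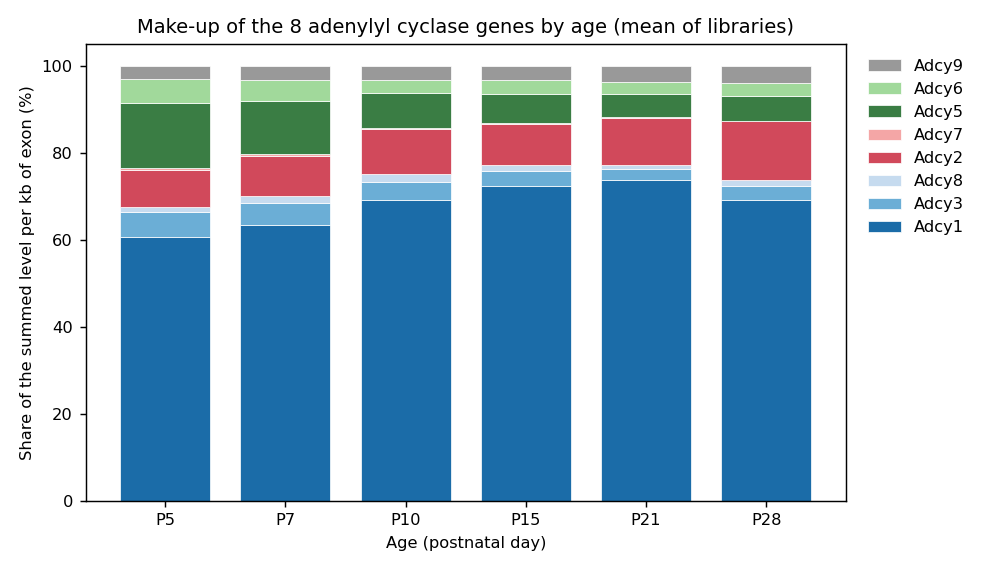
Share of each adenylyl cyclase gene in the summed level per kilobase of exon (RPKM) of the 8 genes, in percent, as the mean over the libraries of each age (5 at P5, 3 at each other age). The Adcy1 segment is 60.6% at P5, 72.4% at P15 and 69.3% at P28, and the Adcy5 segment 15%, 6.76% and 5.72% at the same ages.

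The order below Adcy1 changed with age. At P5 the levels were 20 RPKM for Adcy5, 11.2 for Adcy2, 7.81 for Adcy3, 7.37 for Adcy6, 3.94 for Adcy9, 1.6 for Adcy8 and 0.587 for Adcy7, and only the neighbors Adcy3 and Adcy6 overlapped between libraries. At P10 Adcy2 had 19 RPKM and Adcy5 14.8, and the libraries of these genes did not overlap at that or any other age. By P28 Adcy9 (8.42 RPKM) had passed Adcy3 (6.45) and Adcy6 (6.1), which again overlapped with each other. Adcy8 was seventh and Adcy7 last at all 6 ages. The ratio of Adcy1 to Adcy5 per length was 4.07 ± 0.506 (P5), 5.21 ± 0.549 (P7), 8.62 ± 0.94 (P10), 10.7 ± 0.49 (P15), 14 ± 2 (P21) and 12.2 ± 1.51 (P28). Lengths of the longest transcript in place of all exons gave the same order except at P10, where Adcy6 stood above Adcy9.

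By class, the 3 calcium-stimulated genes together held 67.7% ± 1.34 of the sum at P5, 77.2% ± 0.528 at P15 and 73.9% ± 1.12 at P28. Without Adcy1 the other members of that class, Adcy3 and Adcy8, held 7.06% ± 0.515 at P5, 4.81% ± 0.457 at P15 and 4.6% ± 0.238 at P28. The calcium-inhibited pair, Adcy5 and Adcy6, held 20.6% ± 1.92 at P5, 9.94% ± 0.418 at P15 and 8.56% ± 0.64 at P28. The share of Adcy2 and Adcy7 was 8.8% ± 0.446 at P5, 9.7% ± 0.767 at P15 and 13.6% ± 0.481 at P28. The larger share of the calcium-stimulated class thus came from Adcy1 and not from its other members. These shares are relative amounts of mRNA and say nothing about enzyme activity.

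Of the 8 genes, 7 differed between the 6 ages in edgeR's quasi-likelihood test with Benjamini-Hochberg adjustment over all 15373 genes tested, where 79.7% of all genes did. The adjusted p was 3.8e-13 for Adcy1, 7.6e-14 for Adcy2, 4.4e-11 for Adcy9, 1.7e-07 for Adcy5, 0.00035 for Adcy3, 0.0024 for Adcy6 and 0.0025 for Adcy8, and 0.15 for Adcy7. Since most genes at large differed with age, the course and size of each change are given.

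**Figure D2:**
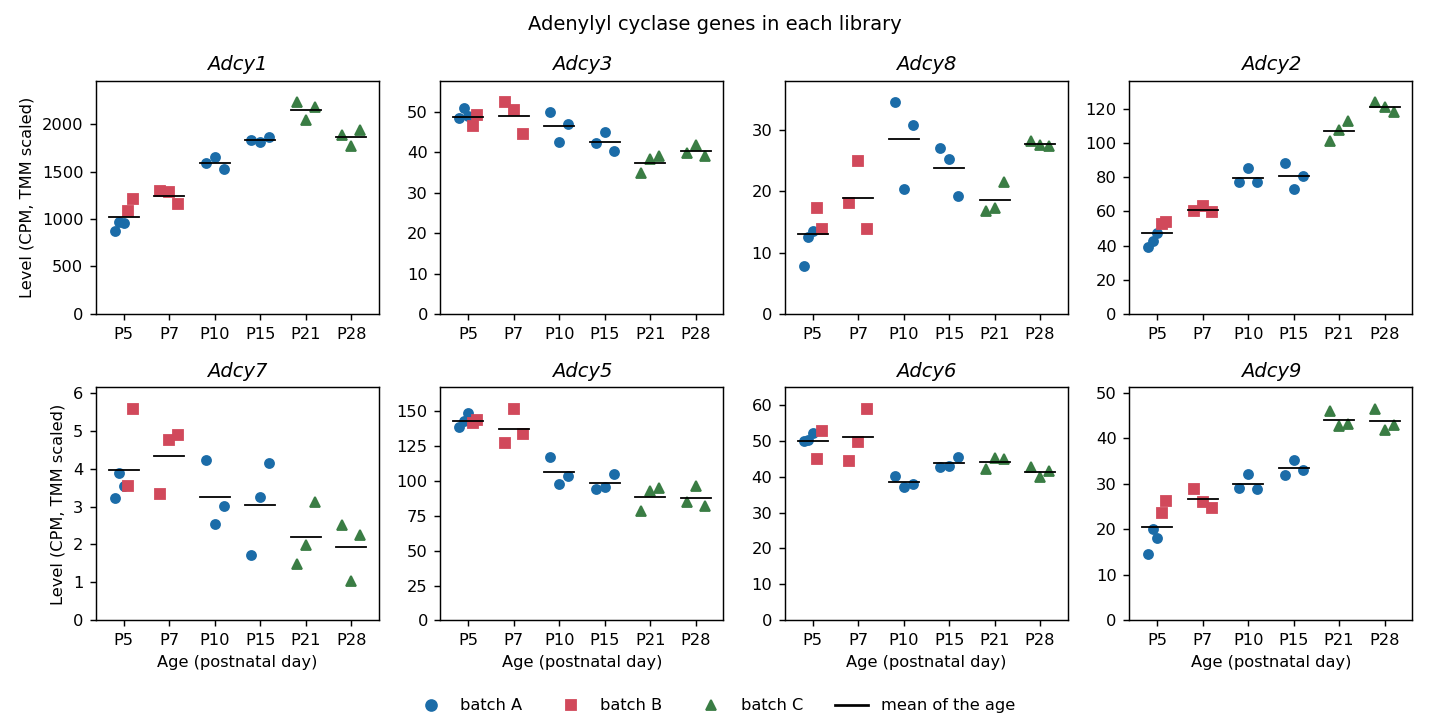
Level of each adenylyl cyclase gene (CPM after scaling by trimmed means, linear axes from 0) in each of the 20 libraries against age in postnatal days. Points are libraries, colored by batch, and bars are means of the age. Adcy1, Adcy2 and Adcy9 climb, Adcy5 declines, and Adcy8 scatters widely at P5, P7 and P10, less at P15 and least at P28.

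Adcy1 encodes a cyclase that is largely restricted to neurons, where calcium influx drives it through calmodulin, and mice without it have disordered maps of the whiskers in the cortex. Its libraries measured 878, 971 and 954 CPM (batch A) and 1080 and 1210 CPM (batch B) at P5, 1290, 1280 and 1160 CPM at P7, 1590, 1650 and 1530 CPM at P10, 1830, 1810 and 1860 CPM at P15, 2230, 2040 and 2180 CPM at P21, and 1880, 1770 and 1940 CPM at P28. Every library of P10 or later lay above every library of P5 and P7, and the P28 libraries lay below those of P21. The level at P10 was 1.7-fold that at P5 (log2 change 0.77, SE 0.06, adjusted p = 1.1e-10), and the level at P15 was 1.96-fold that at P5 (0.97, SE 0.06, adjusted p = 1e-12). P10 against P7 gave a log2 change of 0.65 (SE 0.09, adjusted p = 5.1e-06) that relies on the P5 libraries to bridge the batches, and 0.36 (adjusted p = 0.0017) without the batch term, where P15 against P5 gave 0.85. The interneuron sum was likewise higher, at the values given above for P15 and P5, but its members were divided. Mean Gad1 was 157 CPM at P15 and 87.3 CPM at P5, Sst 74.6 and 29.9, Gad2 32.9 and 15.9, and Pvalb 1.71 and 0.066. Lhx6 was lower, at 9.62 and 20.3 CPM, and Slc32a1 was nearly level, at 10.9 and 10.7 CPM. Deviations of Adcy1 from the mean of its age and batch were correlated across the 20 libraries with those of each marker sum (log2 scale). The extremes were 0.62 for the interneuron sum and -0.57 for the mossy cell sum. The astrocyte sum gave 0.51 and the granule cell sum 0.29. These values describe libraries that share depth, and the part of these cells was not tested.

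The smaller steps of Adcy1 lay near the threshold. For P7 against P5 the log2 change was 0.12 (95% interval -0.03 to 0.26, adjusted p = 0.3), and 0.29 (adjusted p = 0.0089) without the batch term. P15 against P10 gave 0.21 (SE 0.06, adjusted p = 0.052), although the 3 P15 libraries lay above the 3 of P10, and a fit of batch A alone gave the same change with adjusted p = 0.036. P28 against P21, both in batch C, gave -0.21 (SE 0.06, adjusted p = 0.15), with adjusted p = 0.017 in a fit of that batch alone. The call for these steps thus depended on the fit. P21 against P15 gave 0.23 (SE 0.06, adjusted p = 0.0061), where age and batch cannot be told apart.

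Adcy8 encodes the other calmodulin-stimulated cyclase of the hippocampus, which needs more calcium than the product of Adcy1, and mice that lack both genes are impaired in late long-term potentiation and in long-term memory. It measured 7.83, 12.6 and 13.5 CPM (batch A) and 17.3 and 13.8 CPM (batch B) at P5, 18, 25 and 13.9 CPM at P7, 34.5, 20.3 and 30.8 CPM at P10, 27, 25.2 and 19.2 CPM at P15, 16.8, 17.2 and 21.5 CPM at P21, and 28.1, 27.6 and 27.4 CPM at P28. The libraries of P10, P15 and P28 all lay above those of P5, while P7 and P21 overlapped with several ages. P10 against P5 gave a log2 change of 1.33 (SE 0.25, adjusted p = 0.00038), P15 against P5 1.07 (SE 0.26, adjusted p = 0.002) and P28 against P5 1.29 (SE 0.25, adjusted p = 0.00036). With a coefficient of variation of 26.1% at P5, 29.5% at P7 and 25.8% at P10, the intervals were wide, 0.52 to 1.62 for P15 against P5. P10 against P7 passed (1.05, SE 0.37, adjusted p = 0.036), but its libraries overlapped and the call was lost without 1 library in several cases, among them P5 replicate 1 of batch B (0.87, adjusted p = 0.15). P28 against P21 gave 0.58 (SE 0.24, adjusted p = 0.34, and 0.0069 in a fit of batch C alone).

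At 5 of the 6 ages (P5, P7, P10, P21 and P28) the library with the most Adcy8 was also the one with the most marker mRNA of CA pyramidal neurons. At P10 the sum of the 4 markers was 820, 258 and 668 CPM in replicates 1, 2 and 3, in which Adcy8 measured 34.5, 20.3 and 30.8 CPM. At P7 the sums were 399, 547 and 418 CPM beside 18, 25 and 13.9 CPM of Adcy8, and at P15 they were 404, 468 and 295 CPM beside 27, 25.2 and 19.2 CPM. The library with the lowest marker sum had the lowest Adcy8 at P5 (378 CPM beside 7.83 CPM), P10 and P15. Across the 20 libraries, deviations of Adcy8 from the mean of its age and batch had a correlation of 0.7 with those of the marker sum (log2 scale) and of -0.69 with those of the progenitor and cell cycle sum. These were the extremes among all the marker lists, given as a description, and the granule cell sum gave -0.48. Between ages the marker sums overlapped, at 295 to 468 CPM at P15 and 378 to 522 CPM at P5, but the markers took opposite courses. Mean Wfs1 was 133 CPM at P15 and 39.2 CPM at P5, and Fibcd1 87.3 and 59.6 CPM. Neurod6, at 53.1 and 157 CPM, and Mpped1, at 116 and 198 CPM, were lower at P15. Within P10, Wfs1 alone ran from 41.6 to 422 CPM. Adcy8 was 19.2 to 27 CPM at P15 and 7.83 to 17.3 CPM at P5. At P28 the sum ran from 260 to 451 CPM with Adcy8 between 27.4 and 28.1 CPM. None of the 4 markers was at 0 in every library of an age, and the part of pyramidal cell RNA in the level of Adcy8 was not tested.

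**Figure D3:**
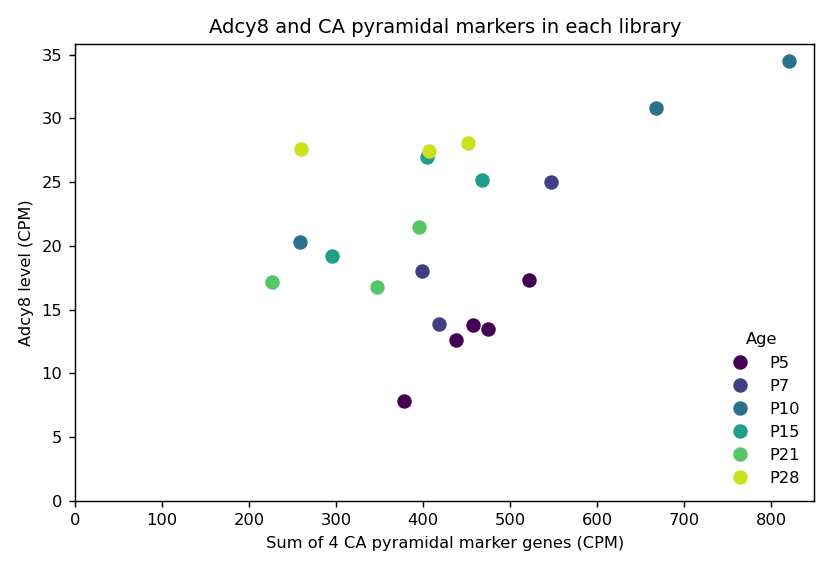
Adcy8 level (CPM) against the summed level of 4 CA pyramidal marker genes (Fibcd1, Wfs1, Mpped1 and Neurod6, in CPM) in each of the 20 libraries, colored by age. The P10 libraries spread from 20.3 to 34.5 CPM of Adcy8 along marker sums of 258 to 820 CPM, and the P5 libraries lie lowest at 7.83 to 17.3 CPM.

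Adcy3, whose product is the cyclase of olfactory cilia and of the primary cilia of many neurons, was the steadiest of the calcium-stimulated genes. It measured 48.4, 50.9, 48.9, 46.5 and 49.2 CPM at P5 (batch A, then B), 52.4, 50.4 and 44.5 CPM at P7, 49.9, 42.5 and 46.9 CPM at P10, 42.3, 45 and 40.4 CPM at P15, 34.8, 38.3 and 39.1 CPM at P21, and 39.8, 41.9 and 39.2 CPM at P28. The P15, P21 and P28 libraries all lay below those of P5, and its highest mean was 1.31 times its lowest. P15 against P5 gave a log2 change of -0.21 (SE 0.07, adjusted p = 0.012), which was -0.18 with adjusted p = 0.051 without P15 replicate 3. P28 against P5 gave -0.29 (SE 0.07, adjusted p = 0.00086). The overlapping gene Cenpo stood at 1.7 ± 0.161 CPM at P15 (n = 3) and 2.76 ± 0.674 CPM at P5 (SD, n = 5), beside 42.6 ± 2.35 CPM of Adcy3 at P15 and 48.8 ± 1.59 CPM at P5.

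Adcy2 encodes a cyclase that combines a Gs alpha signal with beta gamma subunits released from other G proteins. It measured 39.4, 43 and 47.2 CPM (batch A) and 52.6 and 54 CPM (batch B) at P5, 60, 63 and 59.8 CPM at P7, 77, 85.3 and 77.4 CPM at P10, 88.4, 73.1 and 81 CPM at P15, 101, 108 and 113 CPM at P21, and 124, 121 and 118 CPM at P28. Its libraries separated at each step except between P10 and P15. P10 against P5 gave a log2 change of 0.89 (SE 0.07, adjusted p = 1.3e-10) and P15 against P5 0.9 (SE 0.07, adjusted p = 6e-11). P28 against P5 gave 1.49 (SE 0.07, adjusted p = 2.5e-15), 2.8-fold and the largest of the 8 genes in that comparison. That fit sets batch C against the P5 libraries of batch A, where Adcy2 was lower than in batch B. Over all P5 libraries the ratio of mean CPM was 2.56 (121 at P28 and 47.3 at P5). P15 against P10 gave 0.02 (95% interval -0.13 to 0.17). P7 against P5 gave 0.19 (SE 0.08, adjusted p = 0.12), P21 against P15 0.41 (SE 0.07, adjusted p = 8.5e-05) and P28 against P21 0.18 (SE 0.07, adjusted p = 0.29). The opposite-strand gene Gm35161 stayed at or under 2.41 CPM in every library.

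Adcy7, known best from blood and immune cells, was counted sparsely, with 20 to 120 reads in a library. It measured 3.22, 3.88, 3.55, 3.54 and 5.58 CPM at P5 (batch A, then B), 3.33, 4.75 and 4.88 CPM at P7, 4.22, 2.53 and 3.01 CPM at P10, 1.73, 3.25 and 4.16 CPM at P15, 1.49, 1.98 and 3.12 CPM at P21, and 2.52, 1.05 and 2.26 CPM at P28. All libraries of P21 and P28 lay below those of P5, while P7, P10 and P15 overlapped with P5. P28 against P5 gave a log2 change of -0.87 (SE 0.34, adjusted p = 0.027), which was -0.58 with adjusted p = 0.13 without P28 replicate 2, and P15 against P5 gave -0.22 (95% interval -0.91 to 0.47). The 6 microglial markers summed to 16.3 to 25.2 CPM at P28 and 19.3 to 23.9 CPM at P5, and the 6 endothelial and mural markers to 16.2 to 20.6 CPM at P28 and 63.4 to 115 CPM at P5. None of them was at 0 in every library of an age, and their part in the level of Adcy7 was not tested.

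Adcy5, the main cyclase of the striatum and a target of inhibition by Gi alpha and calcium, fell. It measured 139, 143, 149, 142 and 144 CPM at P5 (batch A, then B), 127, 152 and 134 CPM at P7, 117, 98.1 and 104 CPM at P10, 94.1, 95.9 and 105 CPM at P15, 78.4, 93.1 and 95 CPM at P21, and 85, 96.2 and 82.4 CPM at P28. No library of P10 or later reached the lowest library of P5 or P7. P10 against P5 gave a log2 change of -0.43 (SE 0.08, adjusted p = 6.5e-05), P15 against P5 -0.55 (SE 0.08, adjusted p = 2.6e-06) and P28 against P5 -0.71 (SE 0.08, adjusted p = 3.7e-08). Between batches B and A at P5 its log2 difference was 0 (SE 0.09, adjusted p = 0.99). The 4 Cajal-Retzius markers, which summed to 26.4 to 31.4 CPM at P15 and 99 to 133 CPM at P5, were lower too. The immature neuron markers and the mossy cell sum were likewise lower at P15. Most of the mossy cell sum was Calb2, with means of 12.7 CPM at P15 and 24.2 CPM at P5. Of the other mossy cell markers, mean Drd2 was slightly lower at P15, and Csf2rb2 and Glipr1 were higher. Across the 20 libraries, deviations of Adcy5 from the mean of its age and batch had correlations of 0.73 with those of the mossy cell sum, 0.72 with the Cajal-Retzius sum and -0.79 with the granule cell sum (log2 scale). These were the largest in size among all the marker lists. They are a description, and the part of these cells in the level of Adcy5 was not tested.

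Adcy6, close to Adcy5 in sequence and regulation, fell as well. It measured 49.9, 50.3, 52, 44.9 and 52.8 CPM at P5 (batch A, then B), 44.3, 49.7 and 58.9 CPM at P7, 40.1, 37.2 and 37.8 CPM at P10, 42.8, 42.9 and 45.5 CPM at P15, 42.2, 45.3 and 45 CPM at P21, and 42.6, 39.9 and 41.6 CPM at P28. Its lowest mean was at P10, whose libraries lay below all others of P5, P7 and P15. P10 against P5 gave a log2 change of -0.4 (SE 0.08, adjusted p = 0.00014) and P15 against P5 -0.21 (SE 0.08, adjusted p = 0.022), the last with overlapping libraries and lost without P5 replicate 3 of batch A (adjusted p = 0.064) or P15 replicate 2 (0.055). The return at P15 against P10 (0.19, SE 0.08, adjusted p = 0.19) did not pass.

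Adcy9 encodes a widely expressed cyclase. It measured 14.6, 20.1 and 18.1 CPM (batch A) and 23.5 and 26.2 CPM (batch B) at P5, 28.9, 26.1 and 24.7 CPM at P7, 29.1, 32.2 and 28.8 CPM at P10, 32, 35.3 and 33.1 CPM at P15, 46, 42.7 and 43.2 CPM at P21, and 46.5, 41.8 and 42.9 CPM at P28. Its P5 libraries differed by batch without overlap, and those of batch B overlapped with the P7 libraries. P10 against P5 gave a log2 change of 0.77 (SE 0.09, adjusted p = 1.7e-07), P15 against P5 0.93 (SE 0.09, adjusted p = 4.8e-09) and P28 against P5 1.31 (SE 0.09, adjusted p = 4.5e-12). Alternatives that used all libraries gave 1.09 to 1.33 for P28 against P5. P10 against P7 gave 0.68 (SE 0.14, adjusted p = 4e-04), but 0.18 with adjusted p = 0.27 when the batch term was left out. P21 against P15 gave 0.39 (SE 0.09, adjusted p = 0.0014), where age and batch cannot be told apart, and P28 against P21 gave -0.01 (95% interval -0.19 to 0.18).

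Step by step, the 8 genes were set against all genes tested. For P7 against P5 none of the 8 passed, where 11% of all genes did, and 1 (Adcy2) had an unadjusted p under 0.05. DESeq2 also called 0. That share rests on the P5 libraries of batch B: 1698 genes passed with all libraries, 518 without replicate 1 of them and 1020 without replicate 3, with 0 of the 8 in both cases. For P10 against P5 there were 4 higher (Adcy1, Adcy2, Adcy8 and Adcy9) and 2 lower (Adcy5 and Adcy6), where 61.4% of all genes passed. The same 4 were higher and the same 2 lower for P10 against P7, where 42.8% passed. For P15 against P5 Adcy3 joined those that were lower, making 7 of 8, where 63.4% of all genes passed. The median log2 change of the 8 was 0.34 and that of all genes -0.02.

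For P15 against P10 none passed, where 4.36% of all genes did, and Adcy1 and Adcy6 had unadjusted p under 0.05; DESeq2 called 1, Adcy1. The number of all genes that passed, 670, was 209, 1473 and 108 without P10 replicate 1, 2 or 3, and 243 and 127 without P15 replicate 2 or 3. For P21 against P15, 3 were higher (Adcy1, Adcy2 and Adcy9) and 0 lower, where 28.8% of all genes passed. For P28 against P21 none passed, where 0.254% of all genes did, 3 (Adcy1, Adcy2 and Adcy8) had unadjusted p under 0.05, and DESeq2 again called Adcy1 alone. That share stands for 39 genes, which were 9 to 55 when 1 library was left out and 277 in a fit of batch C alone. The number was 9 without P28 replicate 2, 14 without P28 replicate 1 or 3, 12 and 20 without P21 replicate 3 or 2, 19 without P15 replicate 2, and 25 and 20 without P5 replicate 2 or 3 of batch A. Over the whole span, P28 against P5, 4 were higher and 4 lower, where 71.6% of all genes passed, and the libraries of the ages did not overlap for any of the 8, as for 67% of all genes tested. With so many genes changed at large, the counts do not set the family apart. The fitted changes of P10, P15 and P28 against P5 share the P5 libraries of batch A, and that of P7 rests on those of batch B.

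**Figure D4:**
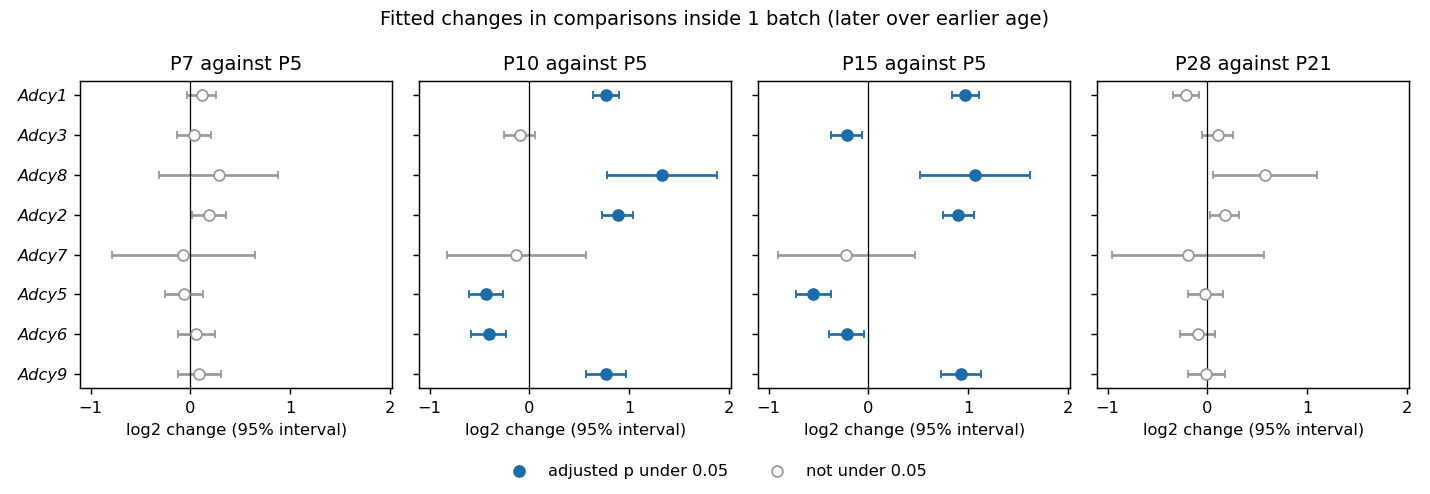
Fitted log2 change of each adenylyl cyclase gene (later over earlier age) in 4 comparisons between ages that share a batch, with 95% intervals. Filled points passed the threshold of 0.05 on the adjusted p; P10 and P15 against P5 show 6 and 7 filled points, and P7 against P5 and P28 against P21 show none.

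The other transmembrane cyclase, Adcy4, which is stimulated by beta gamma subunits and is known from vascular cells, was rare. It measured 0.548, 0.262 and 0.29 CPM at P28, against 1.67, 3.18, 1.69, 1.19 and 1.53 CPM at P5 (batch A, then B), a log2 change of -2.55 for P28 against P5 (SE 0.45, adjusted p = 2.3e-05). P10 against P5 gave -0.98 (SE 0.39, adjusted p = 0.032) with overlapping libraries. The endothelial and mural markers fell alongside, as given for Adcy7, and their part was not tested. Adcy10, the soluble cyclase stimulated by bicarbonate, had 0 to 7 reads in a library and was not tested.

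The genes around the cyclases in the cAMP pathway were taken from 7 lists and compared for P15 against P5, where the 63.4% of all genes that passed split into 31.6% higher and 31.8% lower. Of the 15 genes of G protein subunits and their activators, 12 were lower and 1 (Gnb5) higher, with a median log2 change of -0.4 against -0.02 over all genes. Gnb4, a beta subunit gene, measured 33.2 ± 1.21 CPM at P15 (SD, n = 3) and 92.7 ± 3.75 CPM at P5 (n = 5), a log2 change of -1.49 (SE 0.07, adjusted p = 1.1e-14). Gnai3 (-1.34, SE 0.07) and Gnai2 (-1.15, SE 0.07), which encode inhibitory alpha subunits that restrain several cyclases, fell too. Gnas, the gene of Gs alpha, fell by 0.4 on the log2 scale (SE 0.08, adjusted p = 0.00015), with 844 ± 48.6 CPM at P15 and 1130 ± 68.3 CPM at P5; it and Gnb5 were named after their values were seen. All 15 differed between ages, as did 79.7% of all genes.

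Of 20 receptors that couple to Gs, 7 were higher, 5 lower and 8 did not pass at P15 against P5. Drd5, a dopamine receptor gene, measured 12 ± 1.1 CPM at P15 and 2.61 ± 0.604 CPM at P5 (log2 change 2.43, SE 0.18, adjusted p = 2.7e-11), and 24.8 ± 2.09 CPM at P28. Vipr1, a receptor gene for vasoactive intestinal peptide and PACAP, rose by 1.56 (SE 0.11), and the serotonin receptor gene Htr4 by 0.63 (SE 0.11, adjusted p = 1.7e-05). Other receptors for the same transmitters went differently: Htr7, for serotonin, fell by 0.89 (SE 0.18, adjusted p = 0.00015), and Htr6 and Drd1 each gave 0.26 (adjusted p = 0.33 and 0.37). These 3 were named after their values were seen, and the median of the list was 0.26.

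**Figure D5:**
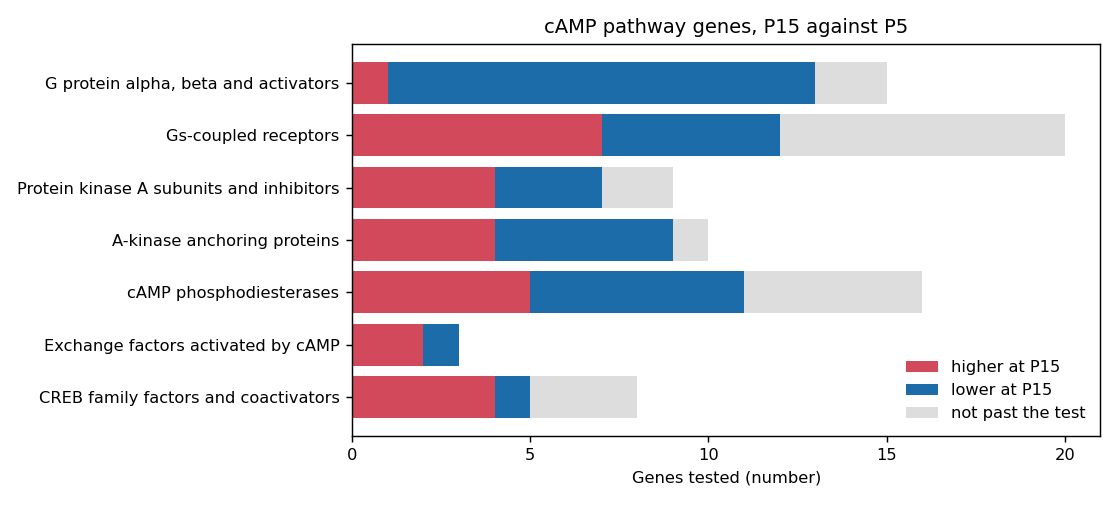
Number of genes tested in 7 lists of the cAMP pathway that were higher or lower at P15 against P5 (adjusted p under 0.05) or did not pass. The G protein list has 12 of 15 genes lower and the other lists are divided.

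Downstream of cAMP the lists were divided. Of 9 genes of protein kinase A subunits and inhibitors, 4 were higher and 3 lower at P15. Pkig, a kinase inhibitor gene, rose by 1.36 (SE 0.07, adjusted p = 2.4e-14) and the regulatory subunit gene Prkar1a by 0.66 (SE 0.06), while Prkar2b, another regulatory subunit gene, fell by 0.72 (SE 0.07). Of 10 A-kinase anchoring protein genes in the table, 4 were higher and 5 lower, or 3 and 5 without the batch term. Those with the smallest p between ages were higher. Akap5, whose product brings the kinase and calcineurin to the postsynaptic membrane, rose by 0.91 (SE 0.08, adjusted p = 9.6e-10), Akap6 by 0.47 (SE 0.08) and Akap11 by 0.44 (SE 0.06). The P15 libraries of Akap6, at 248 to 261 CPM, lay inside the range of those of P5, at 177 to 303 CPM. Its highest mean was at P7, at 574 CPM.

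Of 16 phosphodiesterase genes, which encode the enzymes that break cAMP down, 5 were higher and 6 lower at P15. The 3 with the smallest p were among the higher ones: Pde7b measured 35.9 ± 0.6 CPM at P15 and 7.56 ± 0.888 CPM at P5 (log2 change 2.36, SE 0.11, adjusted p = 5e-15), Pde8b rose by 1.34 (SE 0.07), and Pde1b, which calcium and calmodulin stimulate, by 1.51 (SE 0.08). Of the exchange factors, Rapgef4 (1.38, SE 0.09) and Rapgef2 (0.49, SE 0.05) rose and Rapgef3 fell (-1.19, SE 0.2, adjusted p = 4.2e-05). Among 8 genes of CREB factors and coactivators 4 were higher and 1 lower, 2 and 1 on the scale of total counts. Crtc1, a coactivator gene, rose by 0.66 (SE 0.06) and Crem by 1.25 (SE 0.13), and Creb1 gave 0.19 (SE 0.09, adjusted p = 0.065), passing for P28 against P5 (0.58, SE 0.09, adjusted p = 2.9e-06). No call in these lists changed direction under DESeq2 size factors or total counts.

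For each cyclase gene up to 3 genes most like it were taken by the Pearson correlation of log2 CPM over the 20 libraries, among 10567 genes tested with a mean of at least 5 CPM. Adcy1 was followed most closely by Glp2r (r = 0.987) and Ppp1r16b (0.986). Glp2r, a peptide hormone receptor gene, stood at 23.6 ± 2.38 CPM at P28 (SD, n = 3) and 2.26 ± 1.38 CPM at P5 (n = 5). Adcy2 went with Dcaf6 (0.986), Pkm (0.985) and Tomm20 (0.985), and Adcy9 with Supt6 (0.983), Abl2 (0.98) and Iqgap2 (0.98). Adcy5 went with Gab2 (0.984), Fbxl19 (0.981) and Cpne2 (0.98), Adcy3 with Nell1 (0.939), Cgref1 (0.926) and Rassf3 (0.921), and Adcy6 with Rif1 (0.919), Nbeal2 (0.91) and Sned1 (0.908). Adcy8 went with Sh3gl2 (0.953), Sorcs3 (0.926) and Shf (0.922), and the sparsely counted Adcy7 with Mir124-2hg (0.875), Grip2 (0.867) and Hivep1 (0.858). Libraries share age, batch and depth, so these values describe courses and are given without a test.

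Among the cyclase genes themselves, Adcy1, Adcy2 and Adcy9 had correlations of 0.93 to 0.95 with one another over the same 20 libraries, and Adcy5 had -0.88 to -0.91 with them. Adcy3 and Adcy5 had 0.85. Adcy6 and Adcy8 followed neither course closely, with no correlation beyond 0.7 in size with any other cyclase gene.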

How the data were processed

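The deposited table holds raw read counts per gene symbol, 1 column for each library, and was used as the authors deposited it. Per the labels, a stranded kit with poly-A selection was used. The submitters' processing notes name STAR 2.7.5b, SAMtools 1.10, featureCounts and mm10. Annotation, strandedness of the counting and handling of ambiguous reads were not given in the sources used here. Reads from genes that overlap or have close copies can therefore be misassigned.

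The count test was that of edgeR 4.0.16 (R 4.3.3), with trimmed-mean (TMM) factors, its default filter by age, which kept 15373 genes, and a robust quasi-likelihood fit of age and of batch B against A over all 20 libraries (13 residual degrees of freedom), 2-sided, with Benjamini-Hochberg adjustment over all genes tested and a threshold of 0.05. A log2 change is the fitted one. P7 against P5 rests on batch B, and P10 and P15 against P5 on batch A. P28 against P5 sets batch C, which has no term of its own, against the P5 libraries of batch A. Mean CPM at P5 is over all 5 libraries. Per-length levels divide by the union of GENCODE M21 exons. Libraries of an age differed by more than counting noise in all 25 pairs (chi-square over its degrees of freedom, 3.71 to 41.4), and each was counted as 1 sample. The test was first tried on simulated counts with planted changes. Members and lists were chosen with earlier results of these data known. Named genes are the 8 members, Adcy4, Adcy10, the 3 genes per list with the lowest p between ages and the 3 genes most correlated with each member. A few genes from the lists and this rule are not reported here. Alternatives were DESeq2 1.42.0 and its size factors, total counts, no filter, a stricter filter (1 CPM in 3 libraries), a replicate block, no batch term, fits of 1 batch, leaving out each library, and length of the longest transcript.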

Additional observations from a re-analysis of the deposited data

Results flagged for a closer look

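For Adcy7 the library of P5 replicate 3 in batch B, at 5.58 CPM, stood apart from the other 4 libraries of P5, which measured 3.22 to 3.88 CPM. The gap to its nearest neighbor was 0.722 of the range of the 5, against a critical value of 0.71 in Dixon's test. Chance gives such a gap in about 1 of 20 groups, and P5 was the one age with enough libraries for that test, in each of the 8 genes.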

How the results depend on the processing

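No change of a member that passed turned its sign under any alternative. Of the 64 changes compared, 13 that had not passed did so under at least 1, by up to 0.29 on the other side of 0 for Adcy7 (6 of the 13) and up to 0.07 for the other genes. Between ages 7 to 8 members passed under every setting, and 7 passed for P15 against P5 and 8 for P28 against P5 under every alternative that used all libraries. For P7 against P5, 3 members passed without the batch term (Adcy1 0.29, Adcy2 0.36, Adcy9 0.37), against 0 with it. For P15 against P10, 1 member, Adcy1, passed under DESeq2 size factors, total counts, no filter, the stricter filter, DESeq2 and batch A alone, and 0 to 1 when 1 library was left out. For P28 against P21, 1 passed under DESeq2 (Adcy1) and 2 in batch C alone (Adcy1 -0.21, Adcy8 0.58). Why these calls moved was not tested beyond the setting changed. Replicate numbers did not pair the libraries: deviations of same-numbered libraries had correlations of -0.26 to 0.25 (mean -0.02), and 6 of 20 libraries were most like one of their own number. With the replicate block 7 members passed for P15 against P5 and 5 for P10 against P7, where Adcy8 was lost (1.06, adjusted p = 0.056). Adcy8 for P10 against P7 was also lost without a filter (adjusted p = 0.061), without the batch term (0.059) and without 1 of 6 libraries (0.063 to 0.15). Without P5 replicate 1 of batch B, Adcy5 for P10 against P7 was lost (adjusted p = 0.055), and Adcy7 for P28 against P5 was lost without P5 replicate 2 (0.073) or 3 (0.053) of batch A. Adcy1 for P21 against P15 was lost without the batch term (adjusted p = 0.058). Total counts, which move the median log2 change of all genes to -0.14 for P15 against P5 and leave 39.2% of called genes higher in place of 49.8%, added Adcy3 for P10 against P5 (-0.22) and P21 against P15 (-0.21). With longest transcripts, shares at P28 were 3.26% for Adcy3, 3.11% for Adcy6 and 1.8% for Adcy8. Adcy7, at 20 to 120 reads in a library, had the largest standard errors of the 8 genes (0.32 to 0.46).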
